A study of Mus musculus with 6 samples.

Results

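The 9 genes described here encode extracellular parts of WNT signalling: the ligands Wnt5a and Wnt5b, the receptors Fzd1 and Fzd2, and the secreted inhibitors or modulators Sfrp1, Sfrp2, Frzb, Dkk2 and Dkk3. They were chosen by symbol from a deposited expression table of mouse left ventricle with 31273 gene symbols, and all 9 have a row in it. The table holds 3 libraries of control genotype and 3 libraries in which RBM20, a regulator of splicing in heart muscle, was overexpressed in cardiomyocytes only. The series' design text speaks of a tamoxifen-inducible knock-in of RBM20 restricted to cardiomyocytes. Age, sex, the tamoxifen schedule and whether the controls received tamoxifen are not given in the labels, and the titles abbreviate the control libraries as cki and the others as cre. Groups were taken from the genotype labels.

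WNT ligands are secreted glycoproteins that bind frizzled receptors on the cell surface. In the canonical branch, a frizzled with an LRP5 or LRP6 co-receptor stabilises β-catenin, which then acts with TCF/LEF factors on target genes, whereas WNT5 ligands act mostly through branches that do not need β-catenin. Secreted frizzled-related proteins (SFRPs) carry a frizzled-like domain and can bind the ligands outside the cell, and dickkopfs mostly act on the LRP co-receptors. In the heart these genes are used in development and are known to be re-expressed in injured or fibrotic muscle.

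Levels are in TPM, which gives each gene's share of the transcripts of a library after allowing for gene length. Rbm20 measured 74.9, 90.9 and 79.5 TPM in controls 1 to 3, against 321, 913 and 907 TPM in overexpression replicates 1 to 3, so the labels were followed. Esr1 was below 0.5 TPM in every control, against 217.8, 52.98 and 198.8 TPM with overexpression, so whatever accompanies its expression cannot be told apart from the overexpression of RBM20. Overexpression replicate 1 was the only library with the Y-linked Ddx3y (88.1 TPM) and nearly without Xist (0.017 TPM). Each library held an estimated 41640000 to 90050000 read ends. Mitochondrially encoded transcripts took 48.3% to 52.0% of the TPM in the controls, against 36.7% to 41.0% with overexpression. TPM has a fixed total, and the median log2 difference over the 12404 genes that averaged 1 TPM or more was 0.55. The members are therefore also compared after dividing each library by the median of its gene-wise ratios to the average library, which left a median of 0.01.

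Of the 9 genes, 8 reached the mean of 1 TPM and were tested, and each of the 8 also had a control mean above it. Dkk2 did not reach it. In TPM, 6 of the 8 were higher in the overexpression group by limma at an adjusted p below 0.05 and 0 were lower, against 59.0% of all tested genes higher and 9.09% lower. After rescaling, 4 of the 8 were higher (Fzd1, Fzd2, Sfrp1 and Frzb) and 0 were lower, against 22.2% of all tested genes higher and 24.0% lower. Under either scaling, 0 of the 8 were lower at an unadjusted p below 0.05 by limma, and 0 were called lower by voom. The median log2 difference of the 8 genes was 1.08 in TPM and 0.51 after rescaling. All 3 overexpression libraries lay above all 3 control libraries for 6 of the 8 in TPM, against 62.1% of tested genes, and for 4 of the 8 after rescaling, against 28.2%. Without the library with Ddx3y, 6 genes remained called in TPM, and 3 after rescaling, where Sfrp1 lost its call (adjusted p = 0.0566). The libraries are of whole tissue, in which more cells of a type and more RNA per cell cannot be told apart.

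Promoter windows were printed for the inhibitor gene Frzb and the receptor gene Fzd1, which had the largest differences on the log2(TPM + 1) scale (by the ratio of means Fzd2, for which no window was matched, was first), and for the 1 window of any of these genes with a TCF/LEF match, a Wnt5b start. RefSeq windows of GRCm38.p6, from 250 bases before to 50 bases after a transcript start, were matched for 5 of the 9 genes, with 7 windows in all (3 of them for Wnt5b). Capitals mark motif matches, and all are written along the gene, 5′ to 3′. The motifs were searched for on both strands, with no overlap rule between motifs: TCF/LEF (CTTTGAT), AP-1 (TGANTCA), TEAD (GGAATG), the GC box (GGGCGG) and the CCAAT box (CCAAT).
Frzb, chr2:80447347-80447646, minus strand: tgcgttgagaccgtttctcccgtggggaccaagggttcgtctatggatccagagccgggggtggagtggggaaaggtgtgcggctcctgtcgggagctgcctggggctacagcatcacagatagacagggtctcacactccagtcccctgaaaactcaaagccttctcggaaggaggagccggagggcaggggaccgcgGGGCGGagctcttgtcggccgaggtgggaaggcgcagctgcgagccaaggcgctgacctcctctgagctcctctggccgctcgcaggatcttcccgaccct
Fzd1, chr5:4758167-4758466, minus strand: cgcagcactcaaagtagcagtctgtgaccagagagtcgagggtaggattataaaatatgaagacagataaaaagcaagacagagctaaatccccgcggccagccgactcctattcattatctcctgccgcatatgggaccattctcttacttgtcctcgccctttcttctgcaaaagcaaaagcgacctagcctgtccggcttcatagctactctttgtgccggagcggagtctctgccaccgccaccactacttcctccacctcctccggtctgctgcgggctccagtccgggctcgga
Wnt5b, chr6:119449337-119449636, minus strand: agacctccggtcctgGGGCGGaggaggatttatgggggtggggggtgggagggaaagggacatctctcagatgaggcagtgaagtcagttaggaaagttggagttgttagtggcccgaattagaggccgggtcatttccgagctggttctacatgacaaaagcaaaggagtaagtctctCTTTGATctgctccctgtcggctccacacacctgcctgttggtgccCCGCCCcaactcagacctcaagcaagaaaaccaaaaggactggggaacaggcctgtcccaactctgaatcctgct
The Frzb window held 1 GC box that began 51 bases before the start, and the Fzd1 window held no match. The Wnt5b window held a TCF/LEF match that began 71 bases before the start and 2 GC boxes. Over the 32851 promoter windows of the same length, 3.73% held TCF/LEF, 7.81% AP-1, 14.7% TEAD, 35.7% the GC box and 37.4% the CCAAT box. The Fzd1 window lies wholly upstream of the GENCODE gene model, which ends at position 4758035. Most of the Frzb window, its GC box included, lies inside the gene model, which ends at 80447625. The printed Wnt5b window is at an internal start, far inside the gene model, which ends at 119544347. A match is a string of letters and shows no binding.

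**Figure D1:**
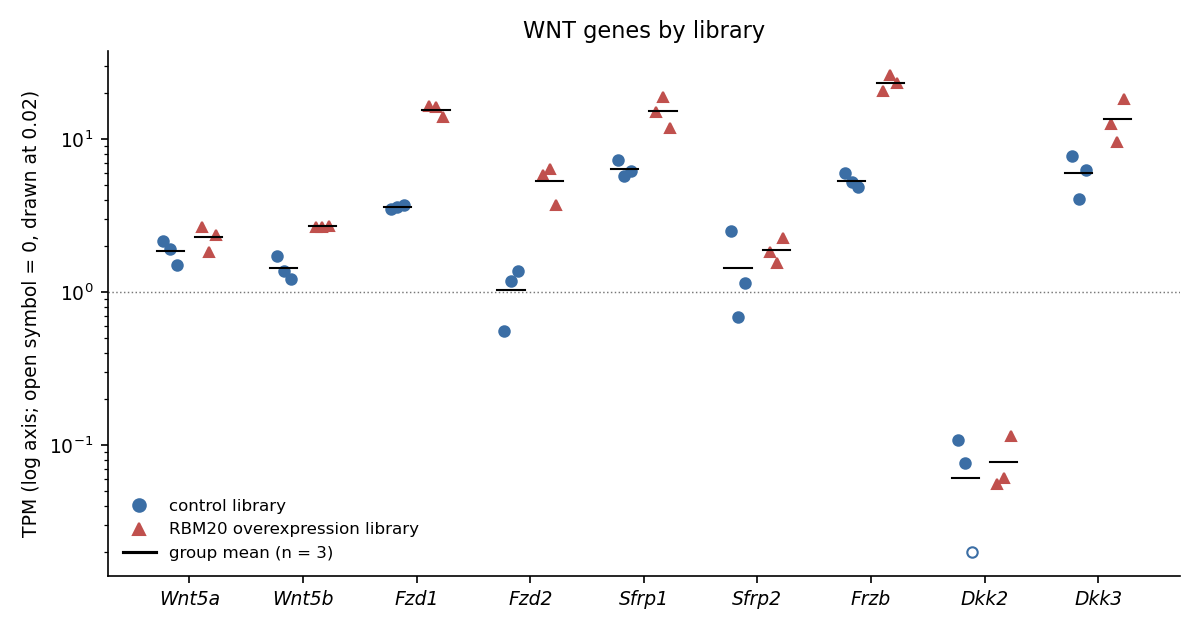
TPM (log axis) of each of the 9 WNT genes in each library, with circles for controls, triangles for overexpression, short lines for the group means (n = 3 per group), a dotted line at 1 TPM, and an open symbol for a value of 0. Frzb, Fzd1 and Fzd2 stand apart between the groups, and Wnt5a and Sfrp2 overlap.

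The 2 ligand genes were both low. Wnt5a, which encodes a ligand of the non-canonical branches, measured 2.15, 1.92 and 1.51 TPM in controls 1 to 3, against 2.65, 1.84 and 2.36 TPM in overexpression replicates 1 to 3. The groups overlapped, since overexpression replicate 2 lay below 2 of the controls. The means were 1.86 ± 0.327 and 2.28 ± 0.414 TPM (SD, n = 3 each), with a limma log2(TPM + 1) difference of 0.20 (SE 0.176, adjusted p = 0.340, 95% interval -0.20 to 0.60). After rescaling the difference was -0.22 (SE 0.174, adjusted p = 0.339), so no direction could be given. It rested on 183 to 381 estimated reads in the controls and 227 to 543 with overexpression. Wnt5a maps to chr14:28504750-28527448 (plus strand, GRCm38).

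Wnt5b, the closest relative of Wnt5a, measured 1.72, 1.38 and 1.22 TPM in controls 1 to 3, against 2.69, 2.68 and 2.71 TPM in overexpression replicates 1 to 3. The overexpression libraries were nearly alike and all above the controls. The mean rose from 1.44 ± 0.255 to 2.69 ± 0.0162 TPM (SD, n = 3 each), a 1.87-fold increase with a log2 difference of 0.60 (SE 0.157, adjusted p = 0.00869 by limma). After rescaling the groups overlapped, at 1.78 ± 0.327 and 2.15 ± 0.158, and the call was lost (log2 difference 0.19, SE 0.151, adjusted p = 0.345). The estimated reads behind these values were few, 50 to 93 in the controls and 112 to 211 with overexpression. Wnt5b maps to chr6:119432531-119544347 (minus strand), and its span overlaps that of Fbxl14 on the opposite strand, which reached 14.6 TPM. Whether the overlap includes exons was not checked, and reads of any shared exon cannot be assigned with certainty. Within the sum of both ligands, which does not depend on scaling, Wnt5b made up 44.4%, 41.9% and 44.7% in the controls, against 50.3%, 59.3% and 53.5% in the overexpression libraries. The shares did not overlap (exact permutation p = 0.1, the smallest that 3 against 3 libraries allow).

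Both receptor genes rose under both scalings. Fzd1, a frizzled able to pass on canonical signals, measured 3.50, 3.59 and 3.69 TPM in controls 1 to 3, against 16.6, 16.2 and 13.9 TPM in overexpression replicates 1 to 3. Every overexpression library was well above the controls, which were tightly grouped. The mean rose 4.33-fold, from 3.59 ± 0.0919 to 15.6 ± 1.46 TPM (SD, n = 3 each), with a log2 difference of 1.85 (SE 0.132, adjusted p = 1.99e-05 by limma). After rescaling it was 2.80-fold (log2 difference 1.30, SE 0.113, adjusted p = 8.37e-05). Its estimated reads were 268 to 427 in the controls and 1201 to 1917 with overexpression. Fzd1 maps to chr5:4753839-4758035 (minus strand).

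Fzd2, a receptor used by WNT5A among other ligands, measured 0.556, 1.18 and 1.37 TPM in controls 1 to 3, against 5.83, 6.34 and 3.74 TPM in overexpression replicates 1 to 3. The lowest overexpression library, replicate 3, still lay above the highest control. The mean rose 5.13-fold, from 1.03 ± 0.426 to 5.30 ± 1.38 TPM (SD, n = 3 each), with a log2 difference of 1.63 (SE 0.233, adjusted p = 0.000424 by limma). The rescaled increase was 3.29-fold (log2 difference 1.21, SE 0.222, adjusted p = 0.00319). Fzd2 rested on 41 to 122 estimated reads in the controls and 410 to 450 with overexpression. It maps to chr11:102604396-102608058 (plus strand).

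Among the 10 frizzled genes, Fzd4, a receptor prominent in endothelium, held the first place in both groups. Fzd1 took 5.62% ± 0.826 of the summed frizzled TPM in controls and 18.2% ± 3.27 with overexpression. Fzd2 took 1.66% ± 0.828 and 6.17% ± 1.72, and Fzd4 65.2% ± 7.44 and 43.3% ± 6.34 (SD, n = 3 each). For these 3 genes the shares of the groups did not overlap (exact permutation p = 0.1 for each, the smallest possible). The sum itself was 64.7 ± 7.46 TPM in controls and 86.8 ± 11.2 TPM with overexpression. Fzd4 alone was at 42.5 ± 9.44 and 37.8 ± 8.92 TPM, and its limma call depended on the scaling (log2 difference -0.17, adjusted p = 0.493 in TPM, and -0.78, adjusted p = 0.0175 after rescaling).

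**Figure D2:**
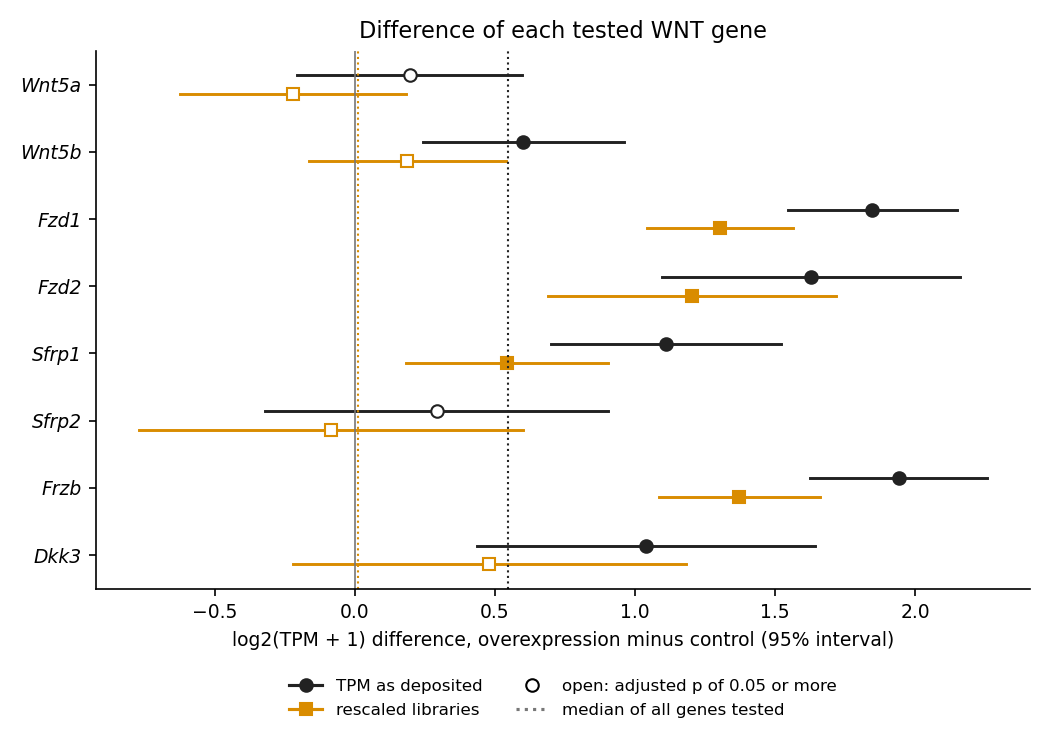
Difference in log2(TPM + 1), overexpression minus control, with its 95% interval for the 8 tested WNT genes, in TPM (circles) and after rescaling (squares), with open symbols where the adjusted p was 0.05 or more. Dotted lines give the median of all tested genes (0.55 and 0.01). Frzb, Fzd1 and Fzd2 lie above both lines under both scalings.

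Of the secreted inhibitors, Frzb had the largest log2(TPM + 1) difference. Frzb (also called SFRP3), which can bind WNT ligands outside the cell, measured 5.99, 5.22 and 4.88 TPM in controls 1 to 3, against 20.8, 26.5 and 23.2 TPM in overexpression replicates 1 to 3. No overexpression library came near the control range. The mean rose 4.38-fold, from 5.36 ± 0.572 to 23.5 ± 2.85 TPM (SD, n = 3 each), with a log2 difference of 1.94 (SE 0.139, adjusted p = 1.99e-05 by limma). After rescaling the increase was 2.83-fold (log2 difference 1.37, SE 0.124, adjusted p = 0.000101). It rested on 266 to 466 estimated reads in the controls and 1275 to 2397 with overexpression. Frzb maps to chr2:80411970-80447625 (minus strand).

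Sfrp1, another secreted frizzled-related protein, measured 7.36, 5.74 and 6.18 TPM in controls 1 to 3, against 15.0, 18.8 and 11.8 TPM in overexpression replicates 1 to 3. All 3 overexpression libraries exceeded the controls, with replicate 3 nearest to them. The mean rose 2.37-fold, from 6.43 ± 0.839 to 15.2 ± 3.50 TPM (SD, n = 3 each), with a log2 difference of 1.11 (SE 0.180, adjusted p = 0.000804 by limma). After rescaling it was 1.52-fold (log2 difference 0.54, SE 0.156, adjusted p = 0.0227). That rescaled call was lost without control replicate 2 (adjusted p = 0.0767) or 3 (0.0651), and without overexpression replicate 1 (0.0566) or 2 (0.0863). It rested on 468 to 711 estimated reads in the controls and 1277 to 1702 with overexpression. Sfrp1 maps to chr8:23411502-23449632 (plus strand).

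Sfrp2, which has been studied as a secreted factor in cardiac injury, measured 2.50, 0.687 and 1.15 TPM in controls 1 to 3, against 1.82, 1.56 and 2.25 TPM in overexpression replicates 1 to 3. Control replicate 1 was the highest of all 6 libraries, so the groups overlapped. The means were 1.45 ± 0.944 and 1.88 ± 0.350 TPM (SD, n = 3 each), with a log2 difference of 0.29 (SE 0.268, adjusted p = 0.352 by limma) in TPM and -0.08 (SE 0.297, adjusted p = 0.838) after rescaling. Only 39 to 101 estimated reads in the controls and 55 to 148 with overexpression lay behind these values. Without control replicate 1 the TPM difference was 0.59 and passed the threshold (adjusted p = 0.0400). The same library was high for Wt1, an epicardial and mesothelial marker, at 18.8 TPM against 2.97 and 3.21 TPM in the other control libraries. In the overexpression libraries Wt1 was at 3.66, 7.85 and 23.0 TPM, and Sfrp2 was likewise highest in replicate 3. The other 4 markers of that list (Upk3b, Msln, Krt19 and Lrrn4) were instead highest in overexpression replicate 2, where Sfrp2 was lowest of the 3, and Msln and Krt19 were not highest in control replicate 1. The part of epicardial or mesothelial RNA in the Sfrp2 values was not tested. Sfrp2 maps to chr3:83766321-83774316 (plus strand), where Gm26771 on the other strand was at 0 TPM in all libraries.

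The 5 SFRP genes summed to 14.2 ± 2.57 TPM in controls and 41.5 ± 5.26 TPM with overexpression (SD, n = 3 each), a 2.91-fold ratio. Sfrp1 held the largest share in every control and Frzb in every overexpression library. Frzb made up 34.9%, 41.9% and 37.4% of the sum in the controls, against 53.2%, 55.7% and 61.2% in overexpression replicates 1 to 3. Sfrp1 held 45.4% ± 2.31 and 36.5% ± 4.50, and Sfrp5 held 6.24% ± 0.836 and 1.95% ± 1.50. These 3 shares did not overlap between the groups (exact permutation p = 0.1 for each), while those of Sfrp2, at 9.64% ± 4.59 and 4.63% ± 1.33, did (p = 0.2).

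**Figure D3:**
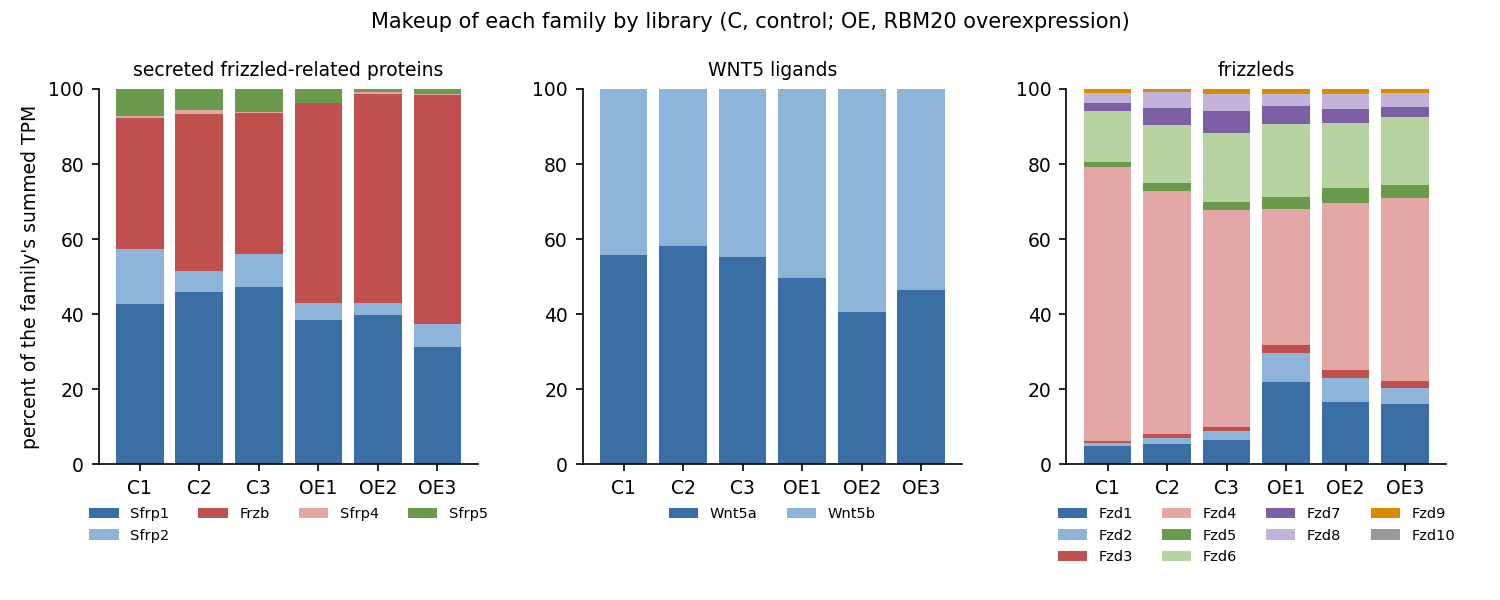
Stacked bars give, for each library, the percent of the summed TPM of its family held by each SFRP gene (left), WNT5 ligand (middle) and frizzled (right), which does not depend on library scaling. Frzb holds less than Sfrp1 in every control and more in every overexpression library. Fzd1 and Fzd2, like Fzd3 and Fzd5, hold larger shares of the frizzled sum with overexpression.

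Dkk3, a divergent dickkopf whose action on WNT signalling is less settled than that of its relatives, measured 7.82, 4.04 and 6.27 TPM in controls 1 to 3, against 12.6, 9.65 and 18.4 TPM in overexpression replicates 1 to 3. The overexpression libraries lay above the controls but were widely spread. The mean rose 2.24-fold, from 6.05 ± 1.90 to 13.5 ± 4.43 TPM (SD, n = 3 each), with a log2 difference of 1.04 (SE 0.264, adjusted p = 0.00761 by limma). After rescaling the groups overlapped, at 7.51 ± 2.54 and 10.99 ± 4.30, and the call was lost (log2 difference 0.48, SE 0.303, adjusted p = 0.231). Among the overexpression libraries, the sum of 4 atrial muscle markers had the order of Dkk3. The sum of Myl7, Myl4, Sln and Bmp10 was 60.3, 14.1 and 153.2 TPM in replicates 1 to 3, against 2.33 to 4.71 TPM in the control libraries. Of the 4, Sln and Bmp10 were at 0 in overexpression replicate 2 and Bmp10 also in replicate 1 and in control replicate 2. Myl7 and Myl4 made up most of the sum and were called higher in TPM, and only Myl4 after rescaling. Sln was not called, and Bmp10, under the filter, went the other way (means of 0.0190 TPM in controls and 0.00452 TPM with overexpression). The order was not particular to atrial markers. The sums of cardiomyocyte markers (34309, 30454 and 34614 TPM) and lymphocyte markers (0.861, 0.836 and 0.901 TPM) had it too in overexpression replicates 1 to 3. The part of atrial tissue in the Dkk3 values was not tested. Dkk3 held 98.9% ± 0.957 of the summed dickkopf TPM in controls and 99.4% ± 0.109 with overexpression, and it maps to chr7:112116017-112159057 (minus strand).

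Dkk2, which binds the LRP co-receptors, was barely detected. It measured 0.107, 0.0762 and 0 TPM in controls 1 to 3, against 0.0554, 0.0612 and 0.115 TPM in overexpression replicates 1 to 3, from an estimated 8, 8 and 0 reads and 4, 4 and 14 reads. The groups overlapped and no difference was detectable at this depth. Taken as independent counts, the 0 in control replicate 3 allows up to 3 reads, or 0.0467 TPM, from counting error only. These reads are single read ends, so the limit is higher if ends were counted in pairs. Dkk1 and Dkk4 were listed at 0 in all 6 libraries.

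The order of the levels, which TPM makes comparable per length, differed between the groups. In the control group Sfrp1, Dkk3 and Frzb came first, with overlapping ranges between neighbours, followed by Fzd1, which overlapped with neither neighbour. Wnt5a, Sfrp2, Wnt5b and Fzd2 came next, with overlapping ranges between neighbours, and Dkk2 was last and apart. In the overexpression group Frzb was first and did not overlap with Fzd1, the second. Fzd1, Sfrp1 and Dkk3 overlapped in turn, and Fzd2 stood apart. Wnt5b lay above Wnt5a by a thin margin only, with a lowest value of 2.68 TPM against a highest of 2.65 TPM. Wnt5a and Sfrp2 overlapped above Dkk2.

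The rest of the pathway was described from a list of 93 other genes, of which 53 were tested. In TPM 35 of the 53 were higher and 3 were lower by limma, against 59.0% and 9.09% of all tested genes. After rescaling 13 were higher and 9 lower, against 22.2% and 24.0%. Their medians on the log2 scale were 0.64 and 0.13, beside 0.55 and 0.01 over all tested genes. Of the 53, 47 averaged 1 TPM or more in the controls, and the other 6 (Porcn, Fzd3, Apcdd1, Axin2, Nkd1 and Nkd2) passed the filter only through their level with overexpression. Among the ligands, Wnt9a rose from 2.14 ± 0.157 to 5.31 ± 1.91 TPM (log2 difference 0.97, adjusted p = 0.00435) but missed the threshold after rescaling (adjusted p = 0.0689). Wnt11, a non-canonical ligand, was at 2.34 ± 0.0622 and 1.58 ± 0.154 TPM and was lower only after rescaling (log2 difference -0.78, adjusted p = 0.00322, against 0.0532 in TPM). Wls, the carrier that brings ligands to the cell surface, rose from 31.6 ± 0.203 to 57.8 ± 6.49 TPM under both scalings (rescaled log2 difference 0.23, adjusted p = 0.0473). Porcn, which acylates the ligands and was likewise tested only through its level with overexpression (0.901 TPM in the controls), rose in TPM only (log2 difference 0.47, adjusted p = 0.0423, and 0.583 after rescaling).

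Of the other receptors, Fzd3 rose under both scalings, from a mean of 0.510 to 1.71 TPM, having entered the test through its level with overexpression, and Fzd5 and Fzd6 rose in TPM only (adjusted p = 0.0655 and 0.915 after rescaling). Ptk7, a co-receptor of planar polarity signalling, rose from 1.23 ± 0.356 to 3.67 ± 0.153 TPM under both scalings (rescaled adjusted p = 0.0137). Ryk, Ror1 and Lrp6 rose in TPM, by log2 differences of 0.89, 0.99 and 0.39, and none of them passed after rescaling (adjusted p = 0.0861, 0.252 and 0.150). The 2 R-spondin receptors that were called went opposite ways. Lgr4 rose from 10.2 ± 2.08 to 23.7 ± 7.08 TPM (rescaled log2 difference 0.53, adjusted p = 0.0441). Lgr6 fell from 11.3 ± 0.464 to 4.38 ± 0.748 TPM (log2 difference -1.20, adjusted p = 0.000203 in TPM, and -1.74, adjusted p = 0.000101 after rescaling). Among other extracellular inhibitors, Kremen1, a dickkopf receptor, rose from 45.8 ± 4.60 to 112 ± 7.63 TPM under both scalings (rescaled log2 difference 0.65, adjusted p = 0.00114), and Apcdd1, at 0.623 TPM in the controls and tested only through its level with overexpression, rose in TPM only (adjusted p = 0.0623 after rescaling). Znrf3, a ligase that removes frizzleds from the surface, also rose in TPM only (adjusted p = 0.285 after rescaling).

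Of the 17 tested cytoplasmic and nuclear transducers, 12 were higher and 1 lower in TPM, and 2 were higher and 5 lower after rescaling, beside the 59.0%, 9.09%, 22.2% and 24.0% of all tested genes. Ctnnb1, which encodes β-catenin, rose from 116 ± 5.20 to 190 ± 9.34 TPM, and its rescaled log2 difference was 0.09 (adjusted p = 0.349). Gsk3b, a kinase of the β-catenin destruction complex, and Bcl9, a β-catenin cofactor, rose under both scalings (rescaled log2 differences 0.39 and 0.55, adjusted p = 0.0152 and 0.0279). Csnk1a1 and Gsk3a, other kinases of that complex, changed sign: their log2 differences were 0.39 and 0.32 in TPM and -0.24 and -0.29 after rescaling, each past the threshold. Dvl3 was called lower after rescaling only (-0.44, adjusted p = 0.0211), and Apc and Pygo2 rose in TPM only (adjusted p = 0.104 and 0.291 after rescaling). Pygo1 was lower under both scalings by limma (log2 difference -0.53, adjusted p = 0.0213 in TPM, and -1.05, adjusted p = 0.00101 after rescaling). Of the 8 tested planar polarity genes, 4 were higher and 1 lower in TPM, and 1 and 1 after rescaling, beside the same shares of all tested genes. Vangl1 rose, from 2.64 ± 0.423 to 10.6 ± 3.65 TPM, under both scalings (rescaled log2 difference 1.11, adjusted p = 0.00455). Daam1 was lower under both, at 39.5 ± 3.13 and 31.8 ± 1.62 TPM (log2 difference -0.30, adjusted p = 0.0284, and -0.91, adjusted p = 0.000278 after rescaling), while Daam2 and Celsr1 rose in TPM only.

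Of the genes commonly used as readouts of β-catenin, 10 were listed and 6 were tested. Of these, 5 were higher under both scalings, beside 59.0% of all tested genes in TPM and 22.2% after rescaling. Nkd1 was not called by limma (log2 difference 0.25, adjusted p = 0.315 in TPM, and -0.07, adjusted p = 0.807 after rescaling). Only Ccnd1, Myc and Ccn4 averaged 1 TPM or more in the controls, and all 3 were higher. Axin2, Nkd1 and Nkd2 entered only through their level with overexpression, so the count over the class is a description. Axin2, a feedback inhibitor and widely used readout of the canonical branch, measured 0.373, 0.894 and 0.962 TPM in controls 1 to 3, against 4.03, 4.63 and 3.68 TPM in overexpression replicates 1 to 3. The groups were well apart (rescaled log2 difference 1.18, adjusted p = 0.00157). Nkd2, another feedback inhibitor, rose from 0.702 ± 0.240 to 4.10 ± 0.129 TPM (rescaled log2 difference 1.21, adjusted p = 0.000797). Ccn4 rose 14.4-fold, from 1.12 ± 0.441 to 16.1 ± 6.65 TPM (rescaled log2 difference 2.50, adjusted p = 0.000177). Myc and Ccnd1, which answer to many other signals as well, rose from 4.68 ± 3.37 to 29.2 ± 7.92 TPM and from 14.3 ± 1.57 to 41.1 ± 6.78 TPM under both scalings. Lef1, Tnfrsf19, Tcf7 and Sp5 were under the filter.

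**Figure D4:**
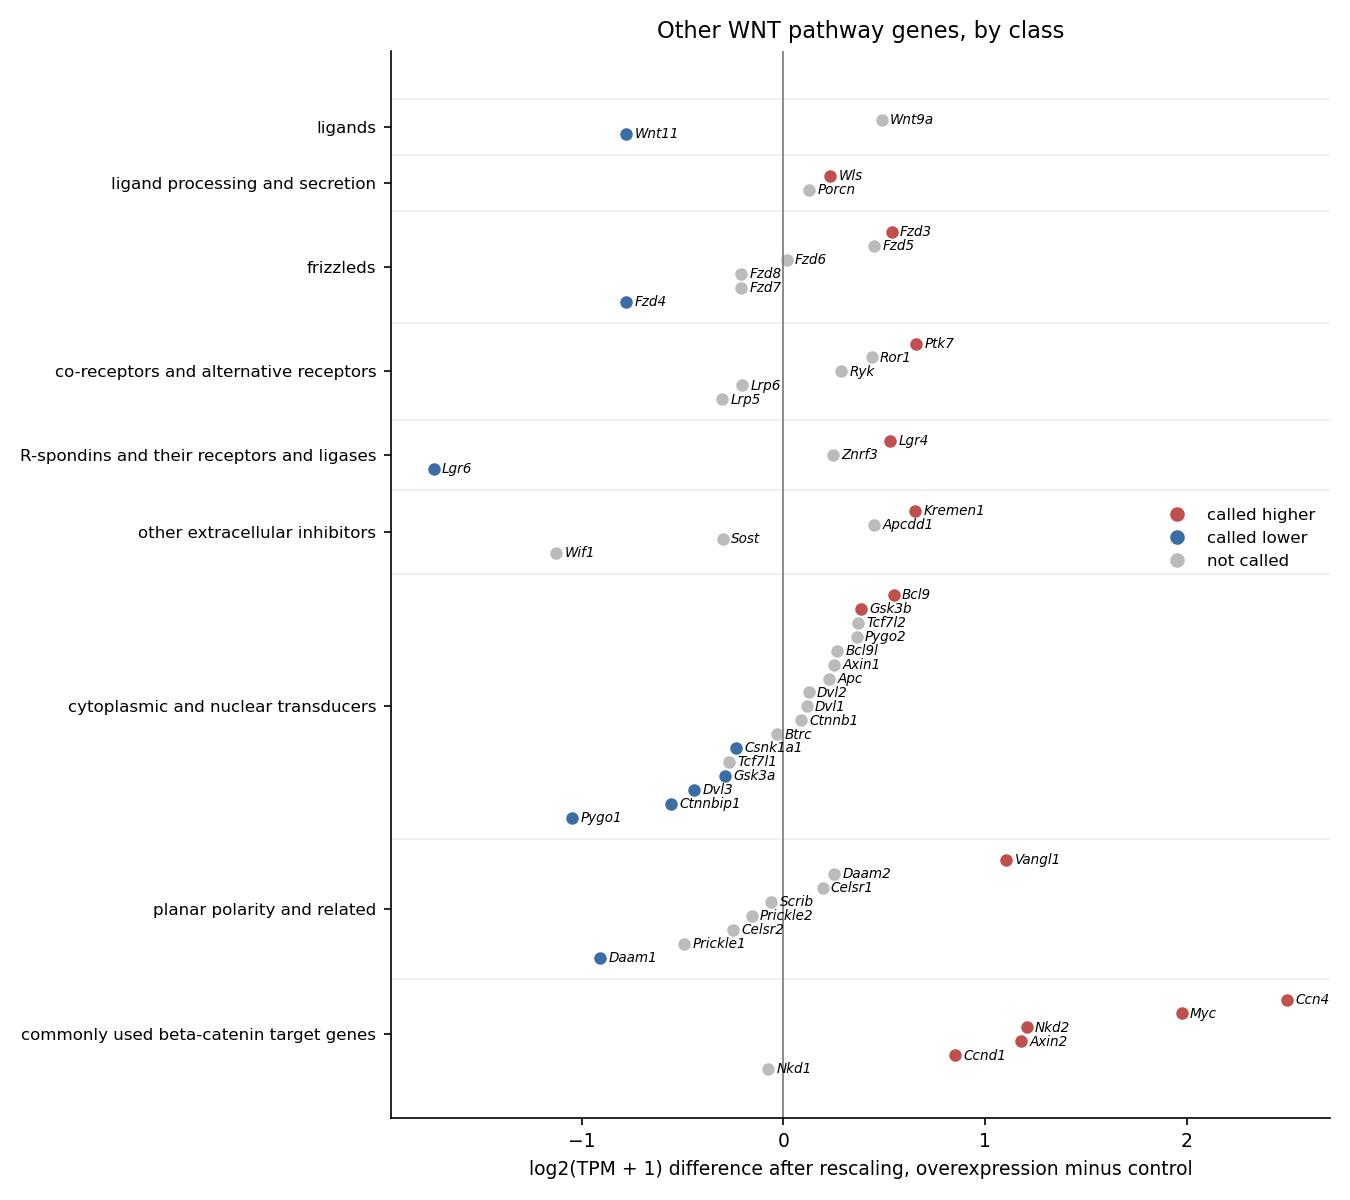
Rescaled difference in log2(TPM + 1), overexpression minus control, of the 53 other tested WNT pathway genes by class, with called genes in colour (limma, adjusted p below 0.05). In the class of β-catenin targets 5 of 6 tested genes were called higher, 2 of these (Axin2 and Nkd2) having passed the filter only with overexpression, and transducers lie on both sides of 0 (2 higher, 5 lower).

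Of the listed cell types, cardiomyocyte markers had the highest sum in every library. It was 34525 to 38976 TPM in controls, against 30454 to 34614 TPM with overexpression. In TPM 1 of the 6 was higher and 4 were lower, and after rescaling 0 were higher and 5 lower. The ratio of the sums was 0.889 in TPM and 0.578 after rescaling. Over all tested genes, 59.0% were higher and 9.09% lower in TPM, and 22.2% and 24.0% after rescaling. The markers of activated fibroblasts (7 genes, among them Postn, Cthrc1 and Meox1) summed to 24.3 to 41.7 TPM in controls, against 452 to 859 TPM with overexpression, with 5 of 7 called higher under each scaling. Of these 5, Cthrc1 (0.294 TPM in the controls) passed the filter only through its level with overexpression. Fap and Comp were not called, with rescaled log2 differences of -0.31 and -0.32 (adjusted p = 0.185 and 0.593 by limma). Postn, at means of 10.7 TPM in the controls and 478 TPM with overexpression, made up most of the sum in the overexpression libraries. General fibroblast markers summed to 1108 to 1477 TPM and 1657 to 1898 TPM, with 6 of 8 higher and 1 lower in TPM, and 4 higher and 2 lower (Gsn and Dpt) after rescaling. The ratio of their sums was 1.33 in TPM and 0.859 after rescaling, so its direction depended on the scaling. Macrophage markers summed to 148 to 192 TPM and 376 to 598 TPM, with 6 of 6 higher under both scalings. Endothelial markers summed to 323 to 392 TPM and 367 to 436 TPM, with no call in TPM and 2 of 5 lower after rescaling. Endocardial and valve markers, at 32.4 to 53.4 TPM and 31.8 to 32.6 TPM, had 1 of 3 lower in TPM and 2 after rescaling. Pericyte and smooth muscle markers (476 to 613 TPM and 544 to 603 TPM) had 2 of 6 tested genes higher in TPM, and 1 higher and 3 lower after rescaling. Epicardial and mesothelial markers summed to 21.01, 4.19 and 4.55 TPM in controls 1 to 3 and to 6.79, 24.5 and 29.4 TPM in overexpression replicates 1 to 3, with 1 of 4 tested genes higher. That gene, Krt19 (0.192 TPM in the controls), passed the filter only through its level with overexpression, as did Upk3b and Msln (0.635 and 0.625 TPM). Schwann cell markers stayed below 6 TPM, adipocyte markers below 7 TPM and lymphocyte markers below 1 TPM in every library, and Cd3d was at 0 in all control libraries. In TPM the sums of the activated fibroblast and macrophage markers were 20.6-fold and 2.89-fold higher with overexpression. After rescaling they were 13.1-fold and 1.87-fold higher. The atrial marker sum was 19.4-fold and 13.0-fold higher. Frzb, Fzd1, Fzd2 and Sfrp1 were higher in the same group. Among overexpression replicates 1 to 3, the activated fibroblast sums (627, 859 and 452 TPM) had the order of Fzd2 and Sfrp1 in TPM. So did the pericyte and smooth muscle (549, 603 and 544 TPM), endocardial and valve, and Schwann cell sums. The macrophage sums (598, 488 and 376 TPM) had the order of Fzd1, as did the endothelial sums (436, 424 and 367 TPM). Frzb had the order of the general fibroblast sums (1657, 1898 and 1676 TPM). An order of 3 libraries is easily shared and singles out no cell type. The part of these cell types in those differences was not tested.

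Frzb had the highest mean over all 6 libraries, and its pattern was compared with that of all tested genes by the root mean square difference on log2(TPM + 1) after each gene's control mean was subtracted. The nearest named genes were Scml4 (0.056), Akip1 (0.070), Ino80c (0.070), Bend4 (0.074) and C1qtnf6 (0.077). Scml4 and Bend4 (0.948 and 0.355 TPM in the controls) passed the filter only through their level with overexpression. Both rose by a larger ratio of mean TPM than Frzb, and log2(TPM + 1) understates the change of such low genes. Their nearness to Frzb is therefore partly set by the scale. Among the WNT genes Fzd1 came nearest (0.168), then Fzd2 (0.394) and Sfrp1 (0.608), and Wnt5a was furthest (1.25). By its construction the measure depends strongly on the size of the difference between the 2 groups.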

How the data were processed

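RNA-seq of polyadenylated RNA covered 6 mouse left ventricle libraries, 3 for each genotype label. The authors deposited 1 table of TPM per gene symbol, named TPM per the file headers. Build mm8, edgeR 3.40.2 and featureCounts 2.0.3 are named, with no roles stated, per the submitters' processing notes. The aligner, the gene models and any use of strand were not given in the sources used here. No label says that libraries are separate animals, so a p-value reflects the spread among these samples, which may be technical.

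Genes averaging 1 TPM or more were compared on log2(TPM + 1) with limma 3.58.1 in R 4.3.3 (trended, two-sided, Benjamini-Hochberg over all 12404 genes, threshold 0.05). Fold changes are ratios of mean TPM, and log2(TPM + 1) differences understate the change of low genes. For rescaling, the median of gene-wise ratios to the geometric mean of all libraries was used. Reads per gene were estimated from the steps of low TPM values, to a tolerance of 0.02 reads, and are known up to a whole factor. They are given as read ends, like the library totals. At the GENCODE M21 length, 42.9% of 6760 genes with few reads came out whole in all libraries, so lengths were searched within 50% of it, and the length used differs from GENCODE for 4 members (Wnt5a, Wnt5b, Sfrp2 and Frzb). Library totals use the GENCODE lengths. Gene positions are those of GRCm38 and entered no test. The fit was tested on simulated data. Python 3.11.15 made summaries.

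The members and lists were chosen with earlier results of these data known. Named are the 9 members, Rbm20 and, of each other pathway class, the 3 called genes with the largest log2 difference and genes above 20 TPM. The 5 genes most like the member with the highest mean are also named. Genes outside this rule, chosen with their values in view, are given too (Esr1, Xist, Ddx3y, Axin2, Nkd1, Pygo1, Wnt11, Sfrp5, cell type markers and genes given at 0 or under the filter). The alternatives were other pseudocounts, filters, scalings, limma settings and leave-one-out fits, while voom on the estimated reads was added after the data had been seen.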

Additional observations from a re-analysis of the deposited data

How the results depend on the processing

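The log2 differences of Fzd1 and Frzb kept their direction and call in all 23 alternatives, and that of Fzd2 in the 22 in which it was tested. With 2-library groups after leaving one out, and fewer reads for low genes, precision is limited. The members called higher numbered 6, and 3 with voom on rescaled reads (3 to 7 with a library left out, the 7 without control replicate 1). Members called lower numbered 0 throughout. Wnt5b and Dkk3 lost their calls after rescaling and after quantile normalization. Wnt5a changed sign to -0.22 (log2) after rescaling, -0.31 after quantile normalization and -0.52 with rescaled voom (-0.30 to 0.30 with a library left out), and Sfrp2 to -0.084, -0.20 and -0.14 (-0.36 to 0.59). Of all genes 8443 were called, 5727 after rescaling and 5610 with rescaled voom (4436 to 8297 with a library left out). Other pathway genes called higher numbered 35, and 13 after rescaling, 14 after quantile normalization and 10 with rescaled voom (8 to 35 with a library left out); those called lower numbered 3, and 9, 7 and 11 (1 to 9, with 1 in TPM without control replicate 2 or overexpression replicate 1). The cause of these changes was not tested. The family shares of the members kept their direction with each library left out. For shares that did not overlap between the groups, this was certain in advance. The shares of Fzd3, Fzd4, Fzd5 and Sfrp5 were not rerun. No paired analysis was possible because the titles give the libraries no shared replicate numbers.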
